A study of Mus musculus with 6 samples.

Results

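The mitochondrial ribosomal proteins were taken as every gene of the deposited expression table whose symbol consists of Mrpl or Mrps and a number, with a trailing a, b or c allowed. This rule, which uses names and no measured value, found 76 of the 23359 gene symbols, 47 of the large subunit series (Mrpl) and 29 of the small subunit series (Mrps). They were compared between 3 RNA-seq libraries labelled GAB2 WT (+/+), called WT here, and 3 labelled GAB2 NULL (-/-), called NULL, all from mouse bone marrow and each carrying a letter A, B or C. GAB2 is a docking protein that carries signals from cytokine and growth factor receptors, and the series title places it in transformation and leukemogenesis by BCR-ABL1, a fusion tyrosine kinase. Libraries were made from polyadenylated RNA with a strand-preserving kit and sequenced as paired ends. Strain, age, sex, the way the Gab2 allele was inactivated, any culture, sorting, BCR-ABL1 expression or other treatment of the cells, and whether the libraries of a group came from separate animals are left unstated in the labels. The p-values therefore measure the spread between these libraries, which may be technical.

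The mitochondrial ribosome, or mitoribosome, translates the few messenger RNAs encoded by mitochondrial DNA, which specify core subunits of the respiratory chain and of the ATP synthase. Its ribosomal RNAs come from mitochondrial DNA, whereas all of its proteins are encoded in the nucleus, made in the cytosol and imported. Many of these proteins have counterparts in bacterial ribosomes, and others are specific to mitochondria. The small subunit binds and decodes the messenger RNA, and the large subunit forms the peptide bonds and feeds the new chain towards the inner membrane.

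The 76 genes are scattered over 17 chromosomes. Because most of them moved together, stretches of their promoters are printed, namely the 250 bases before the annotated start of 5 of them, which fell in NULL and whose stretch holds no annotated exon. Mrpl42 and Mrps22 are shown because they fell the most in their subunit series, Mrps24 because it is among the 6 largest falls of the small subunit series, and Mrpl20 and Mrpl45 because they carry an E-box and repeated NRF1 letters. The stretches are Mrpl42 at chr10:95501950-95502199 on the minus strand, Mrps22 at chr9:98601680-98601929 on the minus strand, Mrps24 at chr11:5707702-5707951 on the minus strand, Mrpl20 at chr4:155802628-155802877 on the plus strand and Mrpl45 at chr11:97315466-97315715 on the plus strand, all from RefSeq on GRCm38.p6 and written 5′ to 3′ in the direction of the gene. Capitals mark the letters of a searched motif on either strand.
Mrpl42: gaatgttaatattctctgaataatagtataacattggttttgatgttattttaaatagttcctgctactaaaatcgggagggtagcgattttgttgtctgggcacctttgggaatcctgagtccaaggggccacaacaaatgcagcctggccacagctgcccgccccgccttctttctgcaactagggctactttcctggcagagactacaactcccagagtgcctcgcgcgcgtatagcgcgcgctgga
Mrps22: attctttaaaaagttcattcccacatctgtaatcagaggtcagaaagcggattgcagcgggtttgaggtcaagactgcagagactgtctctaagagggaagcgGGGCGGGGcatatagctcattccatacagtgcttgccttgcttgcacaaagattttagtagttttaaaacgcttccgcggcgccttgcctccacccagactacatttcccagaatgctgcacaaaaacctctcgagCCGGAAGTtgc
Mrps24: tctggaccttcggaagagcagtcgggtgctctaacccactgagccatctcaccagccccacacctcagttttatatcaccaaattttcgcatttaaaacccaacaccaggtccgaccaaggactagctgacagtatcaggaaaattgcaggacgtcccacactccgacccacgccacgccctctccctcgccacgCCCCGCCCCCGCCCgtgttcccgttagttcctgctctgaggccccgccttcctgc
Mrpl20: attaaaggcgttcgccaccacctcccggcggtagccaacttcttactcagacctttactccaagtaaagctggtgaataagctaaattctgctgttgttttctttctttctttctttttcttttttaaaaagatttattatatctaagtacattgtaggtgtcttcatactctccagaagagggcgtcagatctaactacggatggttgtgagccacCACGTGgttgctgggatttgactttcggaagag
Mrpl45: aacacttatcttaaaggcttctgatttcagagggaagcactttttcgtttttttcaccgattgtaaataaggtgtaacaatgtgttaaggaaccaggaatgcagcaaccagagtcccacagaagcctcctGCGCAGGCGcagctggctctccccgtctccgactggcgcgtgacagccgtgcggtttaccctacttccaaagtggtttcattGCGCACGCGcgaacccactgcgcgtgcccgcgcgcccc

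In these stretches the capitals of Mrps22 are a GC box (GGGCGGGG, the letters bound by SP and KLF factors) with its leading letter at position -147 from the start and an ETS motif (CCGGAAGT) at position -11. The capitals of Mrps24 are overlapping GC boxes read from the other strand, those of Mrpl20 an E-box (CACGTG) at position -33, and those of Mrpl45 a pair of NRF1 motifs (GCGCANGCG). Mrpl42 has no capitals, because its only match, a YY1 motif (AAGATGGCG), begins 27 bases after the start and so lies beyond the printed stretch, as do a YY1 motif of Mrps24 and a further NRF1 motif of Mrpl45. These letters describe sequence and do not show that a factor was bound.

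Values are FPKM, fragment counts divided by transcript length and by library size. The lengths used by the authors are not given, so the order of levels between genes is approximate. A gene was tested when its mean over the 6 libraries was at least 1 FPKM, which 9916 genes reached, all 76 mitochondrial ribosomal protein genes among them. Changes are the NULL minus the WT mean of log2(FPKM + 1), a scale that understates the change of low genes, tested with limma over all 9916 genes with Benjamini-Hochberg adjustment. A gene was called changed at an adjusted p below 0.05.

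Transcripts of the mitoribosome were lower in NULL across both subunits. Of the 76 genes, 70 fell, 0 rose and 6 did not pass the test on the deposited scale, with a median change of -0.71, where 65.3% of all 9916 tested genes were called in either direction and 42% were called lower, with a median of -0.13. The change was negative for 68 of the 76 on that scale and on each of 4 rescalings, but the calls were fewer. There were 69 after median-of-ratios rescaling, 58 (with 1 higher) after quantile normalization and 17 with a common FPKM total. When small RNA genes were left out of that total, 52 were lower and 2 higher. Of all 9916 tested genes, 3242, 3278, 1003 and 2045 were lower on these rescalings, in the same order. On the deposited scale 43 of 47 genes fell in the large subunit series (median -0.72) and 27 of 29 in the small subunit series (median -0.68). The 3 NULL libraries all lay below the 3 WT libraries for 72 genes, 43 of the large and 29 of the small series, where 45.1% of all tested genes did so. A called fall of at least 1 on the log2 scale was reached by 7 mitoribosomal genes, which is 9.21% of them, and by 5.99% of all tested genes.

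**Figure D1:**
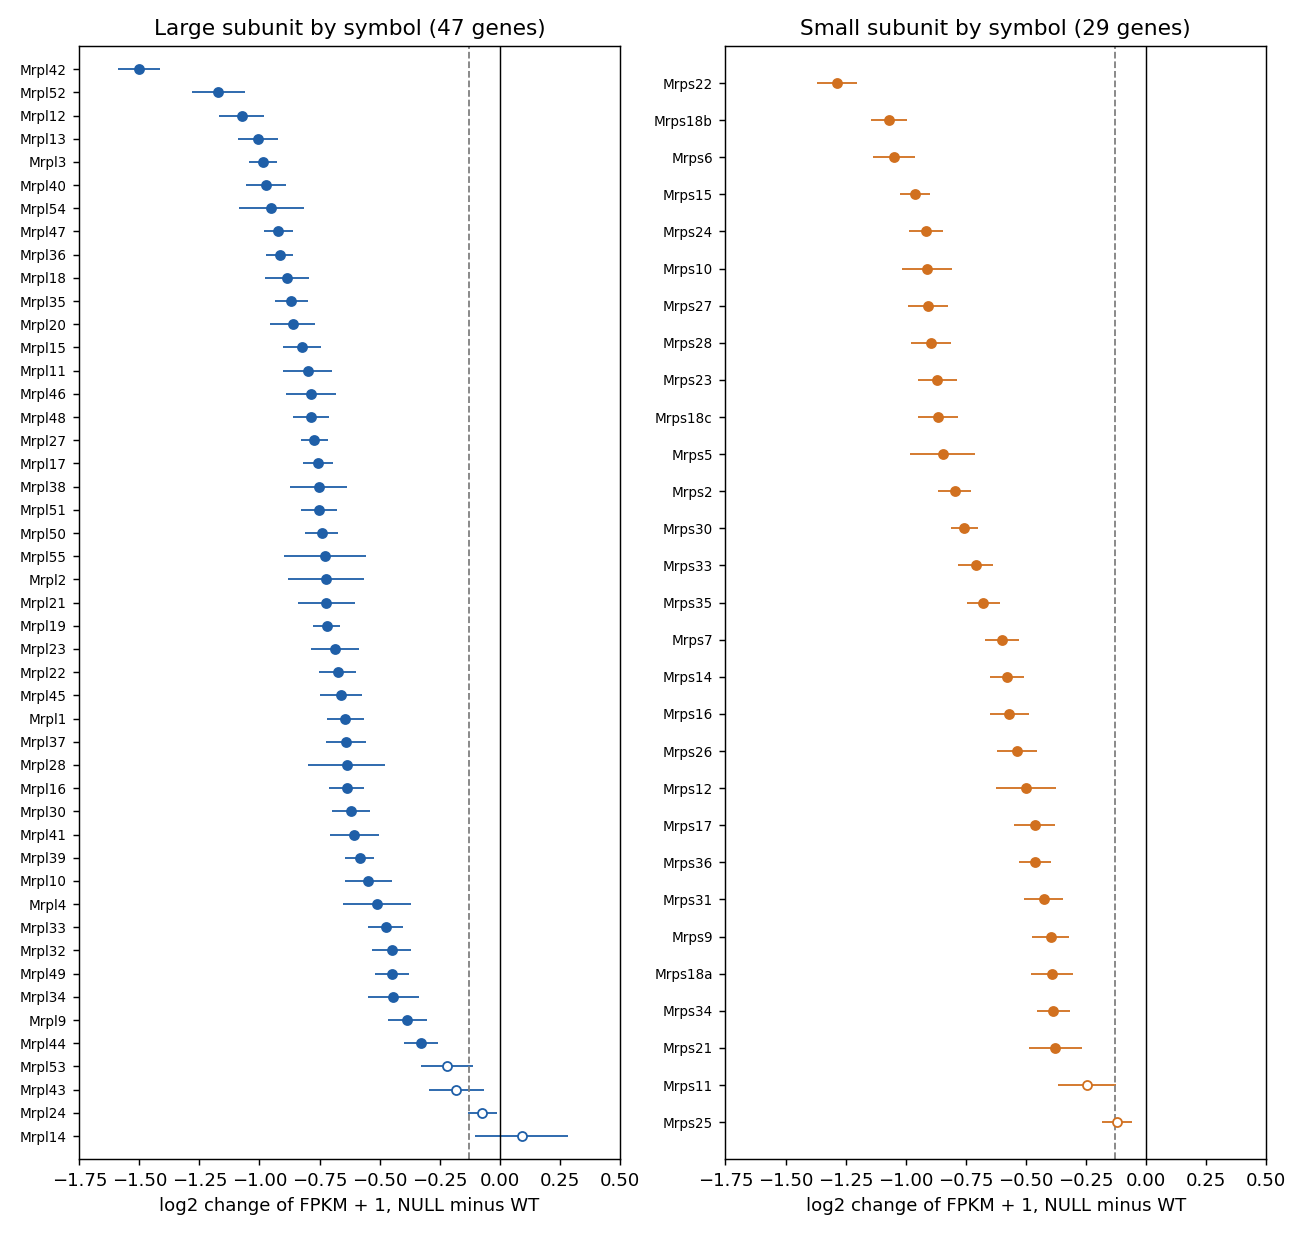
Change of each mitochondrial ribosomal protein gene, as log2(FPKM + 1) in NULL minus WT on the x axis, with the standard error from limma as bars, for the large subunit series on the left and the small subunit series on the right. Filled points were called at an adjusted p below 0.05 and open points were not, and the dashed line is the median of all tested genes (-0.13). All filled points lie left of 0, from Mrpl42 (-1.50) to Mrpl44 (-0.33).

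Summed over the 76 genes, the deposited FPKM came to 2512, 2575 and 2724 in WT A, B and C and to 1653, 1458 and 1600 in NULL A, B and C. The lowest WT sum was above the highest NULL sum, and the NULL mean (1570 ± 101, SD, n = 3) was 60.3% of the WT mean (2604 ± 109, SD, n = 3). The large subunit genes together stood at 59.0% of WT and the small subunit genes at 62.6%. The 2 series moved in parallel: within a library, the mean log2 level of the large series exceeded that of the small series by 0.065 ± 0.029 (SD, n = 3) in WT and by 0.052 ± 0.019 (SD, n = 3) in NULL, which differed by less than the spread between libraries. In bulk RNA, fewer cells of a type and less RNA per cell cannot be told apart.

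A fall of the sum can also be read as a share. Small RNA genes, in which shortness raises the FPKM, made up from 6.10% to 31.5% of the summed FPKM of a library without following the groups. Of the FPKM outside these genes, mitochondrial ribosomal proteins took 0.709%, 0.710% and 0.684% in WT A, B and C. In NULL A, B and C they took 0.556%, 0.539% and 0.558%. The ranges did not overlap on this scale either, although the NULL mean was then 78.6% of the WT mean.

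The genes kept their order of abundance. WT means ran over a 23.2-fold range, from Mrps21 (124 ± 16.8 FPKM, SD, n = 3) down to Mrpl17 (5.36 ± 0.109 FPKM), and these were also the highest and lowest of the 76 in NULL (95.1 ± 6.35 and 2.76 ± 0.101 FPKM). Mrps21 is a small bacterial-type protein of the small subunit, and Mrpl17 a bacterial-type protein of the large subunit. Their coding transcripts in GENCODE vM21 measure 405 bp (Mrps21) and 7300 bp (Mrpl17), and the part of length in these levels was not tested. Across the 76 genes, WT and NULL levels gave Pearson's r of 0.955 and Spearman's rho of 0.946, a description over genes that share the same 6 libraries. The largest shifts in order were those of Mrps22, from rank 32 in WT to rank 56 in NULL, and of Mrpl24, from rank 30 to rank 11. The change of a gene was hardly related to its level (r = -0.11) or to the GC content of its transcript (r = 0.066) over the same 76 genes.

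**Figure D2:**
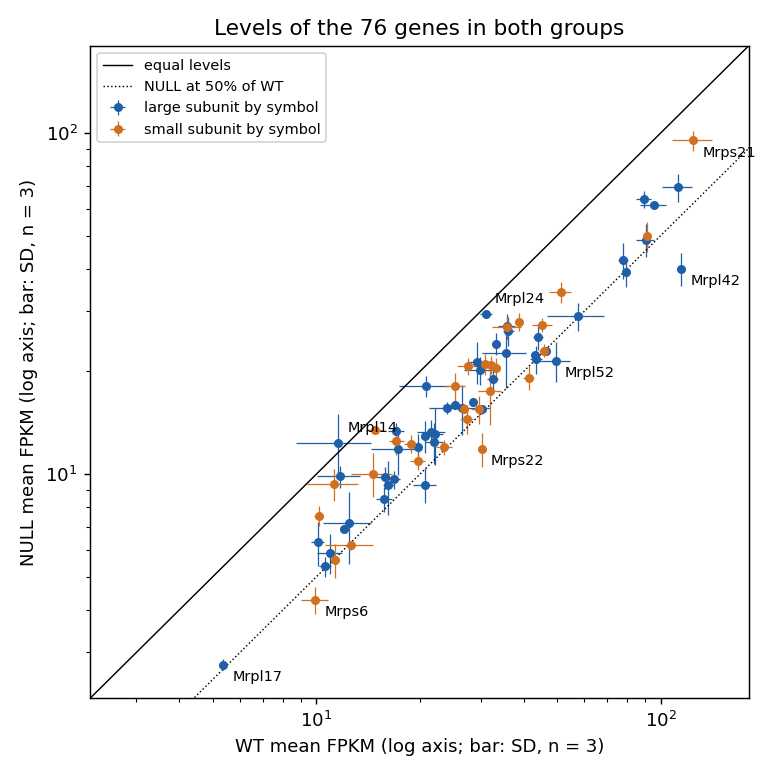
Mean FPKM of each gene in WT (x axis) and NULL (y axis), both on log axes, with the SD over 3 libraries as bars; the solid line marks equal levels and the dotted line NULL at 50% of WT. Most points lie between these lines, with Mrpl42 and Mrps22 under the dotted line and Mrpl24 and Mrpl14 next to the solid one.

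In the large subunit series Mrpl42 fell the most. This gene encodes a mitochondria-specific protein and occupies chromosome 10 between 95480805 and 95501940, minus strand (GENCODE vM21, GRCm38). Its FPKM were 114, 114 and 116 in WT A, B and C and 44.8, 36.0 and 39.2 in NULL A, B and C. The NULL mean was 34.9% of the WT mean, the lowest such share among the 76 genes, and the change was -1.50 (SE 0.087, limma adjusted p = 1.76e-05). Mrpl42 was the second most abundant of the 76 transcripts in WT and ranked 8 in NULL.

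Mrpl52, also mitochondria-specific, had 50.3, 44.1 and 54.2 FPKM in the 3 WT libraries against 24.8, 19.8 and 19.9 in the 3 NULL libraries. Its change was -1.17 (SE 0.11, limma adjusted p = 8.48e-05), with a wide gap between the groups. Mrpl12, the bacterial L7/L12-type protein of the stalk that recruits translation factors, had 19.0, 22.1 and 20.9 FPKM in WT and 10.6, 8.51 and 8.88 in NULL. This was a change of -1.07 (SE 0.094, limma adjusted p = 6.09e-05). The other stalk proteins fell as well, Mrpl11, which anchors the stalk base, by 0.80 and Mrpl10, which carries the L12 copies, by 0.55 on the log2 scale.

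Mrpl13, a bacterial-type protein of the large subunit, stood at 79.3 ± 1.69 FPKM (SD, n = 3) in WT and 39.1 ± 3.86 in NULL, a change of -1.01. Mrpl3, a core protein that in bacterial ribosomes reaches towards the peptidyl transferase centre, had some of the tightest values, 46.7, 47.2 and 45.2 FPKM in WT and 23.5, 22.2 and 23.1 in NULL. Its change was -0.99 (SE 0.058, limma adjusted p = 1.83e-05). Mrpl40, a protein of the central protuberance, the knob that faces the small subunit, stood at 43.5 ± 1.76 FPKM in WT and 21.7 ± 2.07 in NULL, a change of -0.97.

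The 6 genes listed here for the central protuberance (Mrpl18, Mrpl27, Mrpl38, Mrpl40, Mrpl46 and Mrpl48) all fell, with a median change of -0.79. Of 5 genes for proteins around the exit tunnel, 4 fell: Mrpl47 (-0.92), Mrpl23 (-0.69), Mrpl22 (-0.67) and Mrpl45 (-0.66), the last of which helps to attach the ribosome to the inner membrane. The remaining one, Mrpl24, did not pass the test. Mrpl23 and Mrpl30, which with Mrpl42 had the highest mean levels of the large series, stood at 112 ± 11.3 and 95.4 ± 8.43 FPKM (SD, n = 3) in WT and at 69.4 ± 6.43 and 61.6 ± 1.08 in NULL. The least abundant large subunit genes fell too: Mrpl17 by 0.76, Mrpl35 by 0.87 and Mrpl41 by 0.61 on the log2 scale.

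In the small subunit series Mrps22 fell the most. It encodes a mitochondria-specific protein whose loss of function in people causes mitochondrial disease, and occupies chromosome 9 between 98588730 and 98601660, minus strand. Its FPKM were 31.0, 29.9 and 29.9 in WT A, B and C and 11.8, 10.5 and 13.2 in NULL A, B and C. The groups were far apart, with NULL at 39.2% of WT and a change of -1.29 (SE 0.085, limma adjusted p = 2.53e-05).

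Mrps6, a bacterial-type protein next to the S18 site of the small subunit, had 9.62, 10.9 and 9.21 FPKM in WT and 4.58, 3.83 and 4.40 in NULL, a change of -1.05 (SE 0.088, limma adjusted p = 5.43e-05). It was the least abundant gene of the small series by its mean. Mrps15, a bacterial-type protein that binds the ribosomal RNA, stood at 45.7 ± 1.49 FPKM (SD, n = 3) in WT and 23 ± 0.994 in NULL, a change of -0.96. Mrps24, the counterpart of bacterial S3 at the messenger RNA entrance, stood at 23.5 ± 1.28 FPKM in WT and 12 ± 0.615 in NULL, a change of -0.92. Mrps10, a bacterial-type protein of the head of the subunit, stood at 12.6 ± 1.97 and 6.17 ± 0.190 FPKM, a change of -0.91.

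Mrps21, the most abundant gene of the small series, had 106 (WT A), 129 (WT B) and 139 FPKM (WT C) and 97.1, 88.0 and 100 in NULL A, B and C. WT A came close to the NULL libraries, and the change of -0.38 had the weakest support among the 70 called genes (SE 0.11, limma adjusted p = 0.0178). Among the alternative settings, the call for Mrps21 was lost with the sign kept in 5, and the sign turned in 2. The lost calls included those without WT B and without NULL B (limma adjusted p = 0.0622 and 0.0566). Its change was positive after quantile normalization and with a common total without small RNA genes. Mrps16 fell by 0.57 on the log2 scale. Among low transcripts, Mrps27, a pentatricopeptide repeat protein, fell by 0.91 and Mrps34, a mitochondria-specific protein, fell by 0.38.

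**Figure D3:**
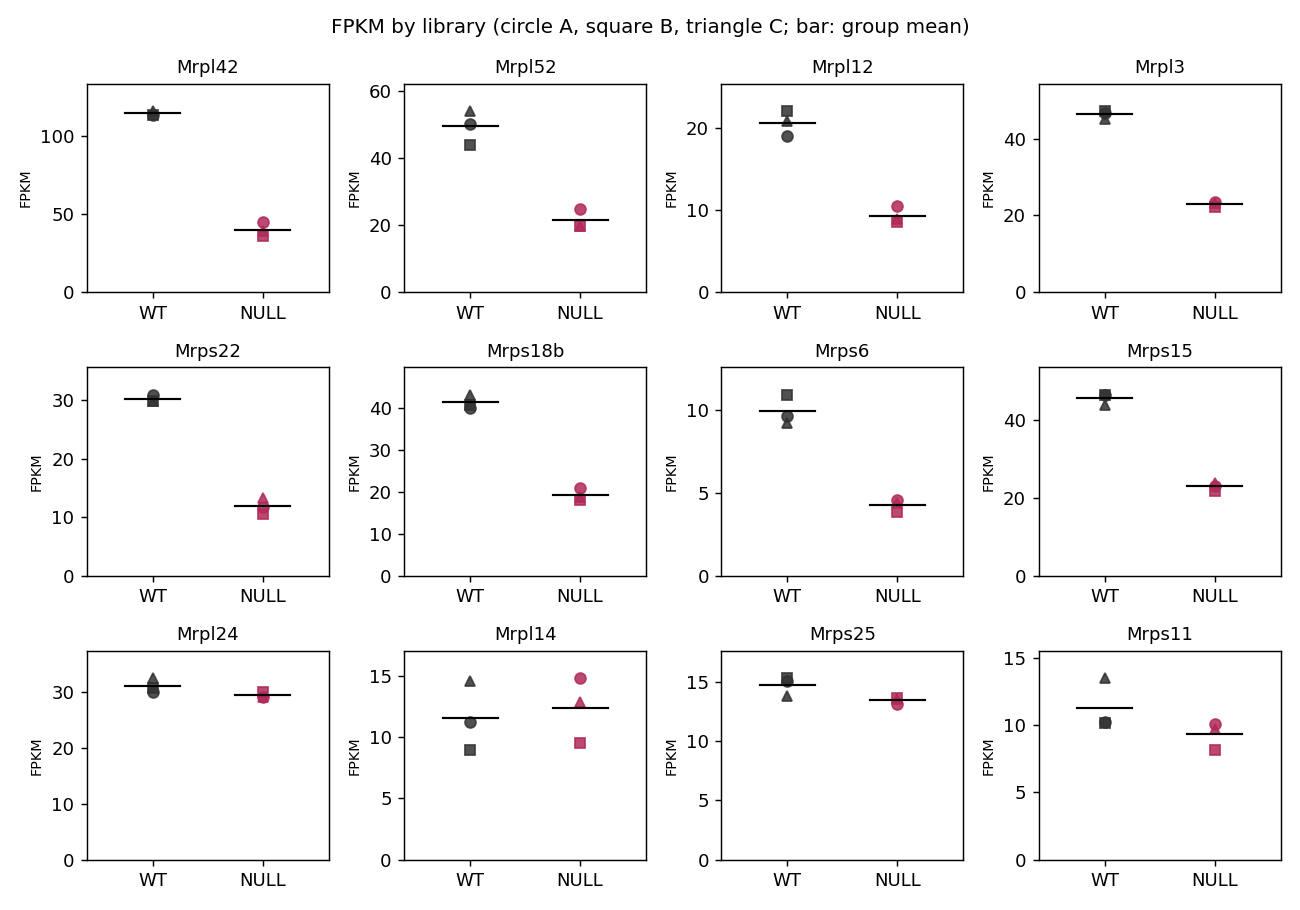
FPKM of 12 genes in each library (circle A, square B, triangle C; y axes start at 0), with the group mean as a bar. The upper 8 genes, among the largest falls, show WT and NULL libraries well apart, whereas in the lower row the groups of Mrpl24 and Mrpl14 overlap and those of Mrps25 and Mrps11 nearly touch.

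Some symbols do not tell the position of the protein. Mrps30 and Mrps18a carry small subunit names, but their proteins sit in the large subunit. Mrps30 stood at 26.8 ± 0.549 FPKM (SD, n = 3) in WT and 15.5 ± 0.311 in NULL, a change of -0.76 (SE 0.056, limma adjusted p = 3.60e-05). Mrps18a, Mrps18b and Mrps18c are paralogs of bacterial S18, of which Mrps18b and Mrps18c belong to the small subunit. All 3 fell, by different amounts: Mrps18b had 40.1, 40.7 and 43.1 FPKM in WT and 20.8, 17.95 and 18.8 in NULL, a change of -1.07 (SE 0.074, limma adjusted p = 2.91e-05). Mrps18c changed by -0.86 (SE 0.083), with 91.3 ± 1.42 FPKM in WT and 49.9 ± 4.98 in NULL. Mrps18a changed by -0.39 (SE 0.088), with 35.9 ± 3.42 FPKM in WT and 27.0 ± 1.77 in NULL. The differences between these changes were not tested. Mrps36 is named for the small subunit, although its protein is better known as a component of the 2-oxoglutarate dehydrogenase complex, and it changed by -0.46 (SE 0.067, limma adjusted p = 0.000581).

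Sorted by origin, 42 of 45 genes with a bacterial counterpart fell (median -0.72), as did 23 of 26 mitochondria-specific genes (median -0.69) and all 5 that were left unclassed. The medians of these classes differed by far less than the genes within each class, whose middle 50% ran from -0.87 to -0.51 and from -0.85 to -0.47.

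A set of 6 genes did not pass the test. Mrpl14, a core protein of the subunit interface, had 11.3 (A), 8.93 (B) and 14.6 FPKM (C) in WT and 14.8, 9.49 and 12.9 in NULL A, B and C. The groups overlapped throughout, with a change of 0.09 (SE 0.19, limma adjusted p = 0.698), the only positive value of the 76. Mrpl24, a bacterial-type protein at the exit tunnel, was tight in both groups, with 30.0, 30.8 and 32.5 FPKM in WT and 29.2, 30.0 and 29.2 in NULL. Its change was -0.07 (SE 0.060, limma adjusted p = 0.314). Of the others, Mrpl43 changed by -0.18 (adjusted p = 0.203), Mrpl53 by -0.22 (adjusted p = 0.109), Mrps11 by -0.25 (adjusted p = 0.113) and Mrps25 by -0.12 (adjusted p = 0.131), all from limma. Without WT B, the library in which Mrpl53 was lowest, Mrpl53 passed the test (-0.33, limma adjusted p = 0.0165). For Mrps11 and Mrps25 the NULL libraries still lay below the WT libraries.

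All 6 of these genes share exon sequence with another protein-coding gene in GENCODE vM21, as 23 of the 76 do. The other 53 genes all fell. Mrps25 shares 4590 bp, 69.8% of its exons, with Nr2c2, a nuclear receptor gene on the opposite strand at 9.55 FPKM in WT and 10.9 in NULL. Mrpl53 shares 695 bp, 88% of its exons, with Gm42688 on the same strand. Mrpl43 shares 33.4% of its exons with Twnk, the mitochondrial DNA helicase, listed in the table as Peo1, and Mrpl24 shares 26.3% with Rrnad1, both on the opposite strand. The shared part is smaller for Mrpl14 with Tmem63b (11.2%) and for Mrps11 with Mrpl46 (7.97%). Of the 23 genes that share exons, 17 fell. Among these, Mrpl18 and Mrpl36 share 10.1% with Tcp1 and 2.58% with Ndufs6, which both fell too. Mrps34 shares 63.4% with Mapk8ip3 on the opposite strand, which rose by 0.45 on the log2 scale. It also shares 37% with Nme3 on the same strand, which changed by -0.33. The labels do not say whether the authors' counting used strand, so reads of opposite genes cannot be told apart, and the part of the shared exons in these values was not tested.

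Similar copies are a second source of uncertain reads. For 17 genes, another locus has an annotated transcript that matches at least 150 bp of the coding sequence at 95% identity or more. All 17, Mrpl42, Mrps18b and Mrps21 among them, were called lower (median -0.71). Loci without an annotated transcript were not searched. With these copies and shared exons set aside, 39 genes remained, all of them lower, with a median of -0.73 and Mrps22 (-1.29) as the largest fall.

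Start sites of 32 of the genes lie within 1000 bp of the start of a coding gene on the opposite strand, an arrangement in which both genes can share a promoter region. Of the 27 neighbours tested that are not mitochondrial ribosomal proteins themselves, 13 (48.1%) were lower, 8 (29.6%) were higher and 6 did not pass the test, with a median of -0.25. These shares are near those of all tested genes, of which 42% were lower and 23.3% higher, so the counts show little about the neighbours beyond the background. Across the 27 pairs the change of the gene and that of its neighbour gave r = 0.40 and rho = 0.39, a description over genes of the same libraries. Falls on both sides were seen for Mrpl18 with the chaperonin gene Tcp1 (-0.89 and -1.11), and for Mrpl47 and Mrpl36 with the complex I genes Ndufb5 and Ndufs6. The pair Mrpl47 and Ndufb5 changed by -0.92 and -0.84, and Mrpl36 and Ndufs6 by -0.92 and -0.80. Opposite changes were seen for Mrpl2 with the kinesin light chain gene Klc4 (-0.72 and 1.02), for Mrpl44 with Wdfy1 (-0.33 and 0.91) and for Mrps18b with Ppp1r10 (-1.07 and 0.27). The neighbours Mrpl46 and Mrps11, from opposite subunits, start head to head on chromosome 7 and changed by -0.79 and -0.25, where the latter did not pass the test. These examples were chosen after their values were seen.

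The promoters were searched for letters of known regulators. RefSeq entries, covering 250 bases before to 50 after the start, were matched for 67 of the 76 genes by symbol, and 5 motifs were searched on both strands. NRF1 letters stood in 15 of the 67 (22.4%), against 17.2% of the 7408 tested genes and 7.03% of all 27025 genes with an entry. ETS letters stood in 12 (17.9%, against 10.7% and 4.31%), and YY1 letters in 8 (11.9%, against 4.32% and 1.64%). E-boxes stood in 5 (7.46%, against 12.6% and 8.09%) and GC boxes in 16 (23.9%, against 37.9% and 19.6%). The median change of the genes with each motif was -0.55 for NRF1, -0.82 for ETS, -0.89 for YY1, -0.86 for the E-box and -0.70 for the GC box, against -0.71 for all 76 genes. NRF1, ETS factors and YY1 are known regulators of nuclear genes for mitochondria. Among the genes of these factors, named after their values were seen, Nrf1 fell by 0.37, Gabpa, the ETS subunit of NRF2, by 0.46 and Yy1 by 0.25 on the log2 scale, whereas Gabpb1, its partner subunit, changed by 0.18 and did not pass the test. These calls depended on the scale: Yy1 was called lower on the deposited scale only and turned positive after quantile normalization and under both common totals. Nrf1 was called lower on the deposited and median-of-ratios scales only. Gabpa lost its call with a common total (-0.19, limma adjusted p = 0.607) and with that total without small RNA genes (-0.10, limma adjusted p = 0.397). Gabpb1 was called higher under quantile normalization (0.41), median-of-ratios rescaling (0.33) and a common total without small RNA genes (0.54).

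Genes for further subunits and for proteins that work with the mitoribosome were grouped in 4 lists, whose medians were negative on all 5 scales. The 8 genes listed under other names (Dap3, Ptcd3, Chchd1, Aurkaip1, Gadd45gip1, Mrp63, Ict1 and the membrane insertase gene Oxa1l) all fell, against 42% of all tested genes, with a median of -0.67. Of these, Gadd45gip1 had the weakest support (-0.49, limma adjusted p = 0.0337). The number lower was 7 without WT B, without NULL B, without NULL C or with no filter on low values. Ptcd3, a pentatricopeptide protein of the small subunit, had 47.2, 44.7 and 48.0 FPKM in WT and 21.4, 19.7 and 23.3 in NULL (change -1.09, limma adjusted p = 3.00e-05). Dap3, a GTP-binding protein of the small subunit, stood at 11.1 ± 1.14 FPKM (SD, n = 3) in WT and 5.22 ± 0.437 in NULL (-0.96).

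Of 16 mitochondrial translation factors and messenger RNA partners 12 fell and 0 rose (75% lower, against 42% of all tested genes; median -0.50). Slirp, which with Lrpprc stabilises mitochondrial messenger RNA, had 120, 125 and 134 FPKM in WT and 56.4, 43.1 and 55.2 in NULL, and changed by -1.28. Gfm1, the translocation factor of elongation, stood at 30.1 ± 1.10 FPKM (SD, n = 3) in WT and 13.5 ± 0.937 in NULL (-1.10), and the elongation factor Tufm changed by -0.86. The initiation factor gene Mtif3 (-0.01), the release factor gene Mtrf1l (-0.19), the formyltransferase gene Mtfmt (-0.15) and Mss51 (0.02) did not pass the test. Without WT C, Mtrf1l (-0.25, limma adjusted p = 0.0179) and Mtfmt (-0.19, limma adjusted p = 0.0496) passed it. Those 4 and Tufm were named after their values were seen.

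Assembly and ribosomal RNA modification had 16 of 29 genes lower (55.2%, against 42% of all tested genes), 1 higher and a median of -0.39. Fastkd2, an RNA-binding protein needed for the large ribosomal RNA, stood at 12.02 ± 1.14 FPKM (SD, n = 3) in WT and 5.27 ± 0.136 in NULL (-1.05), and Malsu1, an assembly factor of the large subunit, at 14.2 ± 1.44 and 6.95 ± 0.471 (-0.93). The single gene that rose, named here after its value was seen, was Mterfd2, whose protein guides the ribosomal RNA methyltransferase Nsun4 in large subunit assembly. Its FPKM were 9.32, 10.2 and 8.68 in WT and 15.6, 14.6 and 15.0 in NULL, with no overlap and a change of 0.63 (SE 0.074, limma adjusted p = 0.000208). Of 13 genes for transcription and upkeep of mitochondrial DNA 11 fell (84.6%, against 42% of all tested genes; median -0.37), led by the exonuclease gene Mgme1 (-0.76) and the packaging and transcription factor gene Tfam (-0.60). Without WT B 7 of the 13 were lower. The mitochondrial RNA polymerase gene Polrmt, at 2.30 ± 0.293 FPKM in WT and 2.70 ± 0.652 in NULL, did not pass the test (0.16); it was named after its value was seen.

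The counts of these 4 lists depended on the scale. With a common total 2 of the 8 genes under other names and 4 of the 16 translation factors were lower. So were 4 of the 29 assembly genes and 1 of the 13 mitochondrial DNA genes. Of all 9916 tested genes, 1003 were lower and 2023 higher on that scale. With small RNA genes left out of that total, the numbers lower were 5, 8, 10 and 2. On that scale 1 translation factor, 8 assembly genes and 2 mitochondrial DNA genes were higher. Of all 9916 tested genes, 2045 were then lower and 4478 higher. The medians of the last 2 lists were close to 0, at -0.04 and -0.05, where that of all tested genes was 0.20. Quantile normalization and median-of-ratios rescaling each left 7 of the 13 mitochondrial DNA genes lower and 1 higher. Over all 9916 tested genes, quantile normalization gave 3278 lower and 2824 higher, and median-of-ratios rescaling gave 3242 lower and 3143 higher.

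**Figure D4:**
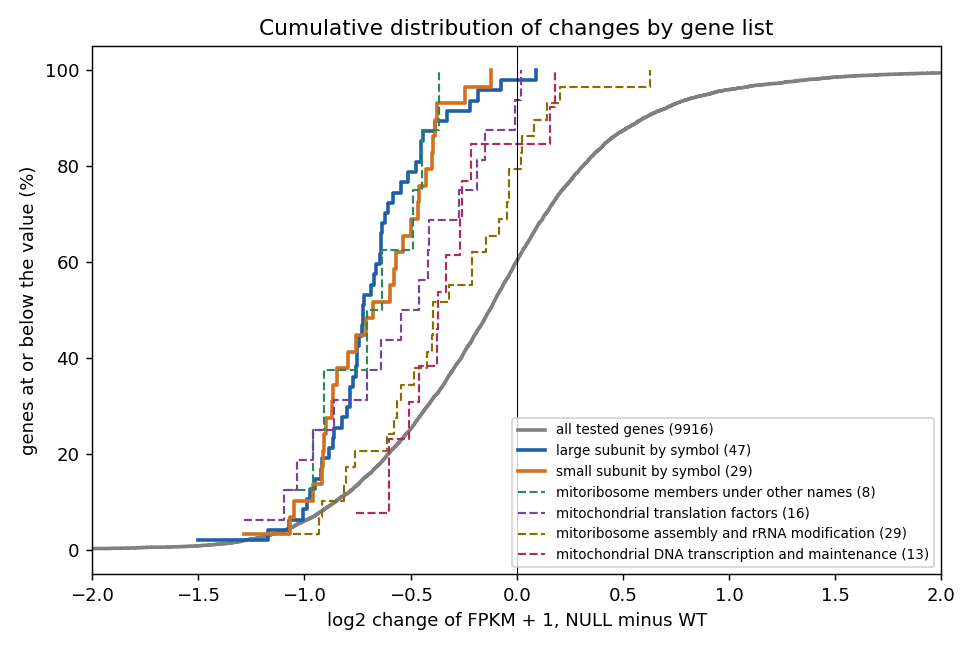
Share of genes (y axis, percent) at or below each change of log2(FPKM + 1), NULL minus WT (x axis), for all tested genes in grey, both ribosomal series as thick lines and the 4 related lists as dashed lines. The curves of the large and small series run close together and left of the grey curve (medians -0.72, -0.68 and -0.13), and the list for assembly and rRNA modification (median -0.39) runs between them and the grey curve.

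The libraries themselves differed within the groups. Depth estimated from the steps of low FPKM ran from about 18.02 to 54.9 M fragments in WT and from 23.5 to 69.0 M in NULL, so even the least covered mitoribosomal gene rested on an estimated 62.8 fragments in NULL B, the median gene there on 450. The median SD over libraries was 5.20% of the mean in WT and 8.24% in NULL. NULL B was the lowest NULL library for 62 of the 76 genes, and NULL A the highest for 46. In WT, C was the highest for 41. Without NULL B the medians were -0.62 for the large and -0.65 for the small series, and 43 and 26 genes were called lower.

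The labels were checked on Gab2 and on marker genes. Gab2 had 3.33, 3.10 and 2.43 FPKM in WT and 0.123, 0.145 and 0.203 in NULL, 5.31% of WT on average (limma adjusted p = 1.83e-05), and values per gene cannot tell which exons the remaining reads come from. Although the tissue label is bone marrow, defining markers of its most common cells were absent: of 10 neutrophil markers 0 reached 1 FPKM, their sum was at most 0.326 FPKM in any library, and Elane, S100a8 and S100a9 were listed at 0. Monocyte and macrophage markers (9), T and NK markers (10) and megakaryocyte markers (5) likewise had 0 genes at 1 FPKM or above, erythroid markers had 1 of 9 (Car2, with Hba-a1, Hba-a2 and Slc4a1 at 0) and stromal and endothelial markers 1 of 7 (Pecam1, which was higher in NULL). All 13 B-lineage markers were expressed. Their summed level ran from 2534 to 2839 FPKM in WT and from 4024 to 4245 FPKM in NULL, with 10 of the 13 higher and 2 lower in NULL. The B-lineage markers thus moved with the groups in the opposite direction to the mitoribosomal genes, and their part in the result was not tested.

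How far the mitoribosomal genes fell depended on how libraries were set to a common scale, while their median stayed negative and under that of all genes on each of the 5 scales tried. The deposited values gave medians of -0.13 for all genes and -0.71 for the mitoribosomal genes. Quantile normalization gave -0.03 and -0.46, with 58 of the 76 lower and 1 higher (Mrpl24), and median-of-ratios rescaling gave 0.01 and -0.56, with 69 lower. Rescaling to a common FPKM total gave 0.11 and -0.44, with 17 lower. With small RNA genes left out of that total, the medians were 0.20 and -0.35, with 52 lower and 2 higher (Mrpl14 and Mrpl24). The mitoribosomal median minus that of all genes ranged from -0.587 to -0.435 over the 5 scales.

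The scale also set the balance of the calls over all genes. Of all called genes, 64.3% were lower on the deposited scale (4168 lower, 2311 higher), 53.7% after quantile normalization (3278 and 2824) and 50.8% after median-of-ratios rescaling (3242 and 3143). With all libraries brought to the same FPKM total the share was 33.1% (1003 and 2023), and 31.4% (2045 and 4478) with small RNA genes left out of it. The change was negative on all 5 scales for 68 of the 76 genes. It turned positive on at least 1 scale for 7 (Mrpl24, Mrpl43, Mrpl44, Mrpl53, Mrps11, Mrps21 and Mrps25) and was negative on none for Mrpl14. The 17 genes called lower on all 5 scales were Mrpl3, Mrpl12, Mrpl13, Mrpl17, Mrpl35, Mrpl40, Mrpl42, Mrpl47, Mrpl52, Mrpl54, Mrps6, Mrps10, Mrps15, Mrps18b, Mrps22, Mrps24 and Mrps27. Relative to the median of all genes, 70 of the 76 were lower on all 5 scales, the exceptions being Mrpl14, Mrpl24, Mrpl33, Mrpl43, Mrps21 and Mrps25.

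**Figure D5:**
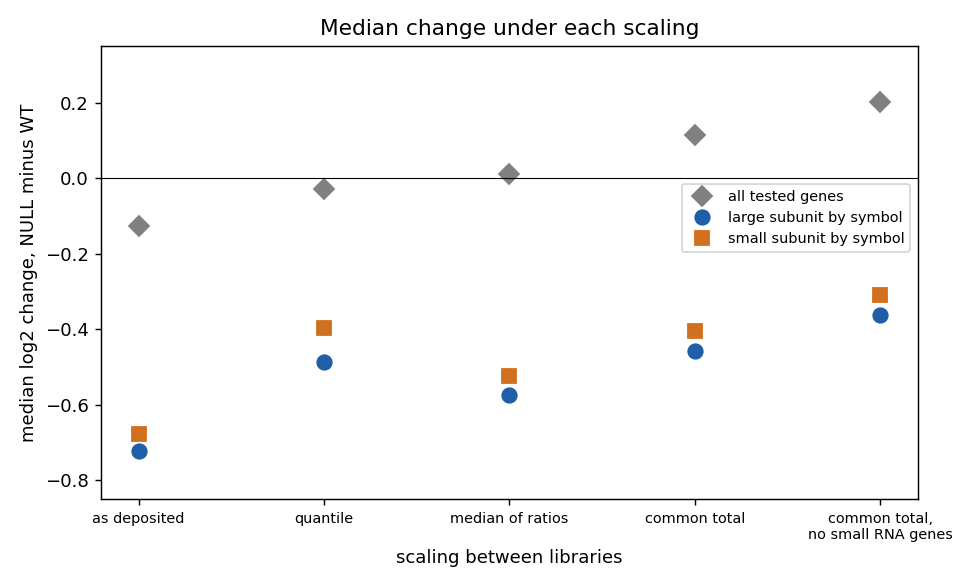
Median log2 change, NULL minus WT (y axis), under the deposited scale and 4 rescalings (x axis) for all tested genes (grey diamonds), the large series (blue circles) and the small series (orange squares). The grey diamonds move from -0.13 to 0.20, and the circles and squares stay under 0 and under the diamonds on every scale shown.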

How the data were processed

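Polyadenylated RNA of 6 mouse bone marrow libraries (3 WT, 3 NULL) was sequenced, per the labels' protocols. FPKM values are as deposited by the authors. The submitters' processing notes name the tools Cufflinks and Bowtie and the builds GRCm38 and mm10. Tool roles, annotation and the use of strand are not given in the sources read. Groups and letters came from the sample titles. The series table held 23848 rows and differed from the library tables in 0 values; for 256 symbols on several rows only the one of highest mean was used, leaving out 489 rows. FPKM are not counts, so limma 3.58.1 in R 4.3.3 was run on log2(FPKM + 1) where the mean over libraries reached 1 FPKM, as a two-sided moderated test along a mean-variance trend, adjusted by Benjamini-Hochberg over 9916 genes (threshold 0.05). The fit was also run on simulated independent values in which few genes changed. Since most tested genes were called in the real data, that run does not bear on these calls.

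Members, lists, roles and tests were chosen with earlier results of these data known. Named per subunit series were the 6 largest called falls without overlap, genes not called, the 3 highest and 3 lowest by mean FPKM, the symbols that do not tell the subunit and, per related list, the 2 largest called changes. Others are said to be named after their values were seen. Positions, shared exons and copies came from GENCODE vM21 on GRCm38, matched by symbol for all 76 genes. Depth was estimated from FPKM steps and the longest transcript less 150 bp, an approximation that supports no counting interval. Alternatives covered the pseudocount, filter, scaling, variance model, replicate block, repeated symbols and each library left out.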

Additional observations from a re-analysis of the deposited data

How the results depend on the processing

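On the deposited scale 43 large and 27 small subunit genes were lower (medians -0.72 and -0.68). With each library left out in turn the counts were 43 to 44 and 26 to 27, and the medians -0.74 to -0.62 and -0.73 to -0.65. The counts did not change with a pseudocount of 0.1 or 5 FPKM, without a mean-variance trend, with robust moderation, with repeated symbols summed or with the replicate block; a mean of at least 5 FPKM gave 42 and 27, and no filter 39 and 25. Medians (large, small) were -0.56 and -0.59 with a pseudocount of 5 FPKM, -0.49 and -0.40 after quantile normalization, -0.57 and -0.52 after median-of-ratios rescaling, -0.46 and -0.41 with a common total (10 and 7 genes lower) and -0.36 and -0.31 with small RNA genes left out of that total (34 and 18 lower). Single genes changed sign as follows. Under quantile normalization Mrpl24 was 0.232, Mrpl43 0.0456, Mrps21 0.118, Mrps25 0.0477, Mss51 -0.128 and Yy1 0.0103. Under median-of-ratios rescaling Mrpl24 was 0.0804, Mrps25 0.0273 and Mtif3 0.121. Under a common total Mrpl24 was 0.20, Mrpl43 0.0886, Mrpl53 0.0369, Mrps11 0.0132, Mrps25 0.141, Mtfmt 0.0879, Mtif3 0.222, Mtrf1l 0.0449 and Yy1 0.0221. With small RNA genes left out of that total they were Mrpl24 0.298, Mrpl43 0.184, Mrpl44 0.0294, Mrpl53 0.13, Mrps11 0.103, Mrps21 0.00185, Mrps25 0.237, Mtfmt 0.178, Mtif3 0.303, Mtrf1l 0.133 and Yy1 0.119. With each library left out, Mrpl14 ran from -0.0672 (without WT B; -0.0371 without NULL A) to 0.257, Mss51 from -0.0538 (without NULL B; -0.012 without WT C) to 0.0658, and Mtif3 from -0.0504 to 0.037 (without NULL B; 0.0302 without WT C). The cause of these changes was not tested. The labels do not say whether the replicate letters pair libraries. Deviations of same-letter libraries correlated at 0.073 (A), 0.355 (B) and 0.133 (C). Each library correlated best with its own letter, a hint from the data and not the design. The replicate block left 43 and 27 genes lower and 3794 lower and 2050 higher over all genes, and 8 of the 13 mitochondrial DNA genes lower. Depth is known only as an estimate, so no counting interval was given.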

Other observations

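Besides the mitoribosome, lists were taken by symbol for the machines it can be set beside, after results were known. Of 74 nuclear genes for subunits of the respiratory chain and the ATP synthase, 65 fell, 0 rose and 9 did not pass the limma test. Their median was -0.73. Of 81 cytosolic ribosomal protein genes, 51 fell, 1 rose and 29 did not pass the test, with a median of -0.47. Of all tested genes 42% were lower, and their median was -0.13. The differences between these lists and the mitochondrial ribosomal proteins (median -0.71) were not tested, and the changes of both lists were computed on the deposited scale only.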
